A study of Mus musculus with 17 samples.

Results

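Gene expression after 2 days of 2i was compared between mouse embryonic stem cells with a slow-elongating RNA polymerase II (RNAPII-mut, called mutant here) and WT cells. The comparison used 2 mutant and 2 WT libraries, chosen by the genotype and day in their sample titles, out of 17 libraries over 0, 1, 2 and 7 days. All cells were of the E14 line, a male embryonic stem cell line, and grew without feeder cells in medium with 10% serum and 1000 U per mL of the cytokine LIF. Both groups then received 1 µM of the MEK inhibitor PD0325901 and 3 µM of the GSK3 inhibitor CHIR99021, together called 2i, for 2 days. The labels name neither the changed residue of the polymerase nor whether the mutant line is 1 clone, and counts per gene do not show which allele was transcribed. The mutation and the history of the cell line that carries it therefore cannot be told apart. The labels also do not say that replicates were separate cultures, so p-values measure the spread between libraries of a group, which may be technical. That spread was estimated over all 17 libraries and not only over those of day 2.

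RNA polymerase II transcribes all protein-coding genes, and its elongation rate sets the time available for splicing and other steps that act on the growing transcript. Serum and LIF keep embryonic stem cells in a mixed state in which some cells lean towards differentiation. The inhibitors of 2i block the ERK pathway and stabilise beta-catenin, which moves the cells towards naive pluripotency, with less DNA methylation and lower levels of lineage genes. Day 2 is a point on the way, when part of this change has taken place.

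Values are CPM, read counts scaled to a common library size with TMM factors, which correct for library composition, and the tests come from one fit over all 17 libraries. A gene was called at an adjusted p under 0.05 over 15365 tested genes (edgeR's quasi-likelihood test, two-sided, Benjamini-Hochberg adjustment). The 4 libraries held 49640574 to 53681393 counts. Across genes, log2 CPM correlated at r = 0.984 between the mutant replicates and at r = 0.954 between the WT replicates, with genes not being independent replicates. The SD over genes of the log2 difference between replicates was 0.61 in the mutant and 1.02 in WT, so the WT replicates were further apart. Mutant replicate 1 correlated with WT replicate 1 at r = 0.979 and mutant replicate 2 with WT replicate 2 at r = 0.974. The other pairs were at r = 0.960 (mutant replicate 1 with WT replicate 2) and r = 0.966 (mutant replicate 2 with WT replicate 1). All of these lay above the value between the WT libraries.

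The cells carried the defining transcripts of embryonic stem cells in every library. Pou5f1, which encodes the core pluripotency factor OCT4, was at 1497 and 2160 CPM in the mutant, against 1205 and 2416 CPM in WT. Nanog, another core factor, was at 734 and 669 CPM in the mutant and at 826 and 726 CPM in WT. Sox2, the third core factor, was at 487 and 397 CPM in the mutant and at 574 and 430.3 CPM in WT. In all of these genes the groups overlapped.

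After 2 days of 2i, 11 genes differed between the genotypes, 0.0716% of those tested. The mutant had more Cds2, Elavl3 and Prrc1, and less Mest, Ddx3y, Uty, Eif2s3y, Aox3, Aass, Kcmf1 and Sh3rf2. The lower genes were an imprinted gene, 3 genes of the Y chromosome, 2 metabolic enzymes and 2 ubiquitin ligases. At an unadjusted p under 0.05 there were 928 genes (6.04%), of which 411 were higher (2.67%) and 517 lower (3.36%) in the mutant. The number of calls rested on single libraries. It was 1 (Mest) without mutant replicate 1, 0 without mutant replicate 2 (597 at an unadjusted p under 0.05), 3 (Mest, Ddx3y and Eif2s3y) without WT replicate 1 and 5 (those 3 with Uty and Aass) without WT replicate 2. With DESeq2 on the same libraries 134 genes were called, all 11 among them.

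**Figure D1:**
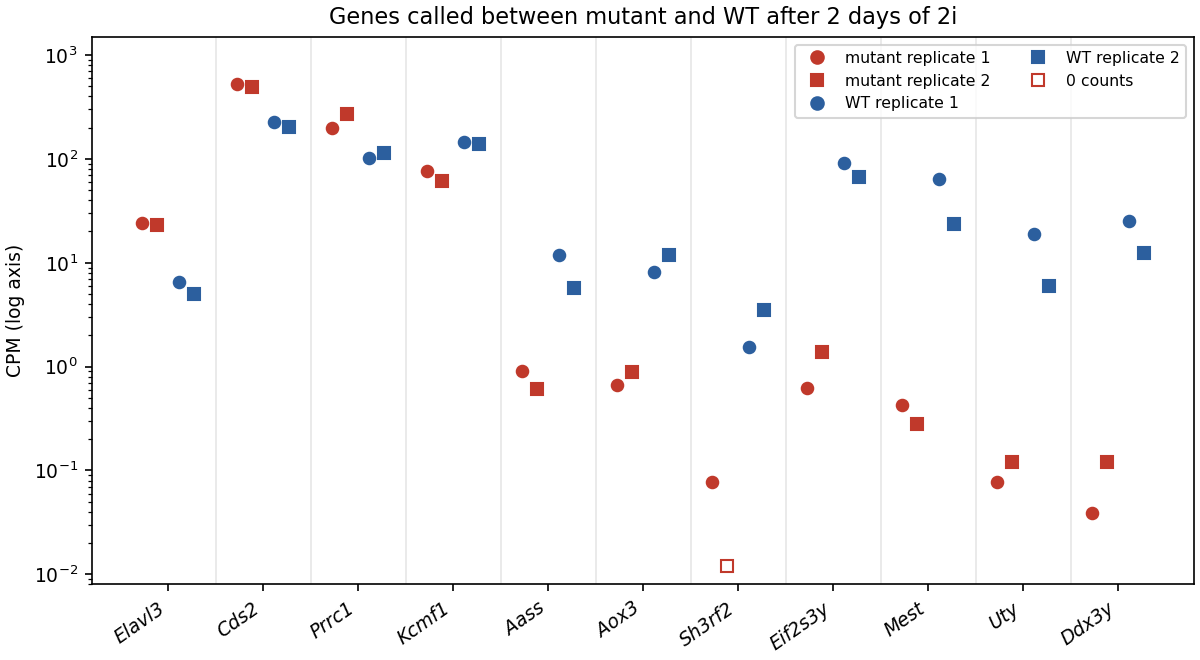
CPM on a log axis of the 11 called genes in each library after 2 days of 2i, with mutant libraries in red left of WT libraries in blue and an open square for 0 counts. In every gene both mutant libraries lie on the same side of both WT libraries, from a 2-fold step for Cds2, Prrc1 and Kcmf1 to more than 100-fold for Mest, Uty and Ddx3y.

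Of the 3 higher genes, Cds2 had the smallest p. It encodes a CDP-diacylglycerol synthase, which makes the precursor of phosphatidylinositol, and lies on chromosome 2 (mm10, 132263148 to 132312050). Cds2 was at 527 and 492 CPM in the mutant, against 229 and 201 CPM in WT. The groups lay far apart relative to their spread, at 509.8 ± 24.8 CPM in the mutant and 214.7 ± 19.7 CPM in WT (SD, n = 2 each), with a log2 difference of 1.25 ± 0.17 (SE, adjusted p = 0.0249). Over the 4 days, all 9 mutant libraries (417 to 650.1 CPM) lay above all 8 WT libraries (189 to 255 CPM). No other gene of the phosphatidylinositol synthesis list was called among 25 tested, and the median of the list was -0.06.

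Elavl3, which encodes the neuronal RNA-binding protein HuC, is on chromosome 9 (22015005 to 22052023). It was at 23.9 and 22.97 CPM in the mutant, against 6.49 and 4.96 CPM in WT. The mutant libraries were close to each other and well above both WT libraries, with a log2 difference of 2.03 ± 0.30 (SE, adjusted p = 0.0276). Prrc1, a gene for a proline-rich coiled-coil protein on chromosome 18, was at 199 and 269 CPM in the mutant and at 103 and 114 CPM in WT. The groups did not overlap (log2 difference 1.11 ± 0.17, SE, adjusted p = 0.0386), though the mutant replicates differed more than the WT replicates did.

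Mest, an imprinted gene transcribed from the paternal allele, had the smallest p of all genes. It was at 0.429 and 0.283 CPM in the mutant, against 64.1 and 23.5 CPM in WT. Mutant cells were thus close to 0, with 22 and 14 counts, while WT replicate 1 was above WT replicate 2 (log2 difference -6.93 ± 0.60, SE, adjusted p = 5.07e-04). Mest lies on chromosome 6 (30723547 to 30748465), and Copg2 overlaps its 3′ part on the opposite strand. The strand setting of the counting is not given in the sources used here, so reads of the overlap cannot be assigned. Copg2 itself was at 78.96 and 70.5 CPM in the mutant and at 78.4 and 76.6 CPM in WT, where the groups overlapped.

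The promoter of Mest is shown because its methylation is known to differ between the parental alleles. RefSeq (GRCm38.p6) lists 3 starts, and the window from 250 bases before to 50 after one of them is chr6:30737800-30738099 on the plus strand. Capitals mark the CG dinucleotides, the sites that DNA methylation modifies.
Mest: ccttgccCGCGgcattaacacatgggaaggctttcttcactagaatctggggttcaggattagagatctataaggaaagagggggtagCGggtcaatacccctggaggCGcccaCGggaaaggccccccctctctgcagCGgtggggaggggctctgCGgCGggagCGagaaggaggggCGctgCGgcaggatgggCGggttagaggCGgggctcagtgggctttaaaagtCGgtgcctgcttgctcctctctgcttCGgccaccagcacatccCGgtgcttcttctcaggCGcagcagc
This window holds 17 CG, against a median of 8, and 33.9% of the 27025 genes with a window hold at least as many. The counts say nothing of the methylation of these sites.

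Of the 8 lower genes, 3 lie on the Y chromosome. Ddx3y, an RNA helicase gene, was at 0.039 and 0.121 CPM in the mutant, against 25.2 and 12.5 CPM in WT (log2 difference -7.84 ± 0.95, SE, adjusted p = 0.00849). Uty, which encodes a relative of histone demethylases, was at 0.0781 and 0.121 CPM in the mutant and at 18.9 and 5.91 CPM in WT (log2 difference -6.93 ± 1.02, SE, adjusted p = 0.0276). Eif2s3y, a translation initiation subunit gene, was at 0.625 and 1.38 CPM in the mutant, against 90.7 and 66.2 CPM in WT (log2 difference -6.29 ± 0.74, SE, adjusted p = 0.00837). In each of them both mutant libraries were close to 0 and WT replicate 1 was above WT replicate 2. Zfy1, a zinc finger gene, had 0 counts in both mutant libraries against 82 and 24 counts in WT, at least 34.0-fold lower in the mutant when 3 counts over the group stand in for 0 (adjusted p = 0.352). Uba1y, a ubiquitin-activating enzyme gene added after seeing the data, was at 0.547 and 0.283 CPM in the mutant and 3.75 and 2.84 CPM in WT (adjusted p = 0.0801). All 5 tested genes on the Y chromosome had both mutant libraries below both WT libraries. DNA was not measured in the data used here.

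The X-linked partners of these genes, added after seeing the data, did not separate the groups. Ddx3x was at 810.0 and 482 CPM in the mutant and at 845 and 468 CPM in WT, and Eif2s3x at 129.9 and 80.6 CPM in the mutant and at 103 and 58.2 CPM in WT. In both pairs the groups overlapped, with replicate 1 above replicate 2 in either genotype. X and Y copies are similar in sequence, and how reads that fit both were counted is not given in the sources used here.

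The 2 metabolic enzymes were low in the mutant and modest in WT. Aox3, an aldehyde oxidase gene on chromosome 1 (58113130 to 58200698), was at 0.664 and 0.8897 CPM in the mutant, against 8.14 and 11.9 CPM in WT (log2 difference -3.68 ± 0.59, SE, adjusted p = 0.0459). Aass, which encodes the enzyme of the first steps of lysine breakdown, lies on chromosome 6 (23072173 to 23132986). It was at 0.898 and 0.607 CPM in the mutant and at 11.8 and 5.71 CPM in WT (log2 difference -3.54 ± 0.55, SE, adjusted p = 0.0386). Both mutant libraries were more than 5 times below either WT library in both genes.

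Over the days of 2i the WT levels of Aox3 went up and those of Aass went down. Mutant libraries had 0.161 and 0.073 CPM of Aox3 at day 0 and 1.55 and 1.49 CPM at day 7, while WT libraries had 0.804 and 1.71 CPM at day 0 and 20.5 and 16.1 CPM at day 7. For Aass, mutant libraries had 3.13 and 2.15 CPM at day 0 and 0.296 and 0.472 CPM at day 7, against 19.9 and 14.6 CPM at day 0 and 2.88 and 5.96 CPM at day 7 in WT. Of the other aldehyde oxidase genes, Aox1 was at 2.23 and 1.70 CPM in the mutant and at 1.68 and 1.90 CPM in WT, and Aox2 and Aox4 were under 1.2 CPM in all 4 libraries. None of these was called, and their groups overlapped.

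Kcmf1 and Sh3rf2 encode ubiquitin ligases. Kcmf1 (chromosome 6, 72841114 to 72899979) was at 76.5 and 61.4 CPM in the mutant, against 145.5 and 140.5 CPM in WT (log2 difference -1.05 ± 0.15, SE, adjusted p = 0.0276). It varied little with time, since all 9 mutant libraries held 61.4 to 76.5 CPM and all 8 WT libraries 122.97 to 145.5 CPM. Sh3rf2, on chromosome 18, had 4 and 0 counts in the mutant and 79 and 188 counts in WT, or 1.55 and 3.51 CPM in WT (log2 difference -5.92 ± 0.96, SE, adjusted p = 0.0459). It was close to 0 in the mutant and low in WT.

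The same genes differed at the other days, whose libraries are separate from those of day 2, though all entered one fit. Of the 11 genes, 7 were called at day 0, 11 at day 1 and 7 at day 7, and all 11 kept their sign at all 4 days. Over all genes, 43 were called at day 0 (0.28%), 64 at day 1 (0.417%) and 15 at day 7 (0.0976%). The change in the genotype difference between days was tested directly. The difference at day 2 minus that at day 0 gave 0 calls (0%), with 366 genes at an unadjusted p under 0.05, and that at day 2 minus that at day 7 gave 0 calls (0%), with 147. DESeq2 called 0 genes and 1 gene in these tests, the one being Car4, named after its value was seen. Across genes, the day 2 difference correlated at r = 0.531 with that of day 0, 0.624 with day 1 and 0.468 with day 7, a description over genes that are not independent.

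**Figure D2:**
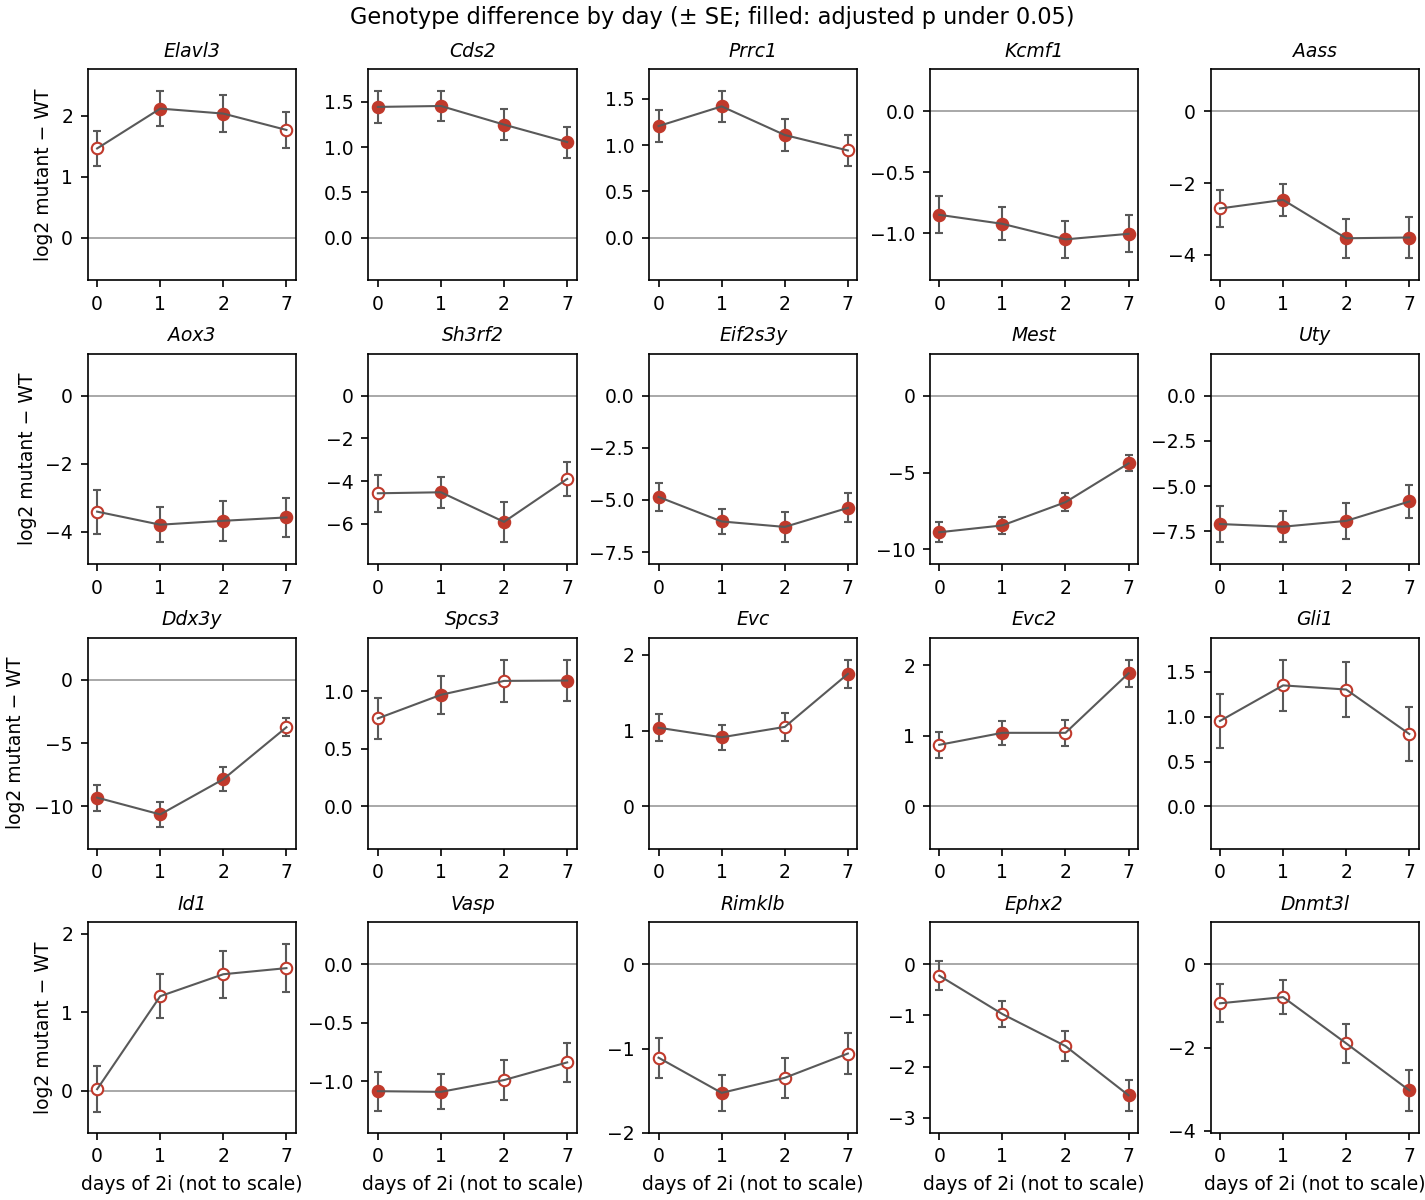
Log2 difference of mutant minus WT with its SE at 0, 1, 2 and 7 days of 2i for the 11 called genes and 9 others described in the text. Filled points have an adjusted p under 0.05. The called genes lie on one side of 0 at all days, whereas Id1 starts near 0, Ephx2 lies further below 0 at each later day, and Dnmt3l is lowest at day 7.

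Next came genes just short of the threshold, taken by smallest p among genes of at least 5 CPM whose groups did not overlap (14.6% of tested genes had both mutant libraries above both WT libraries and 15.5% had both below). The higher ones were Spcs3, Evc, Evc2, Gnpat, Mau2 and Neil3. Spcs3, a subunit of the signal peptidase complex, was at 242 and 247.5 CPM in the mutant, against 116 and 114 CPM in WT (adjusted p = 0.0522). Gnpat, which starts ether lipid synthesis, was at 276 and 242 CPM in the mutant and at 156 and 143 CPM in WT (adjusted p = 0.0785). Mau2, part of the cohesin loader, was at 145 and 133 CPM in the mutant and at 84.3 and 79.7 CPM in WT (adjusted p = 0.0900). Neil3, a DNA glycosylase gene, was at 15.3 and 14.5 CPM in the mutant and at 5.91 and 6.72 CPM in WT (adjusted p = 0.111). These 4 are all on chromosome 8. Genes on the opposite strand overlap Spcs3 (Asb5), Evc (Crmp1) and Gnpat (2810004N23Rik), so reads of the overlaps cannot be assigned.

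The lower ones were Vasp, Rimklb, Ephx2, Slc1a3, Arhgdib and Fmr1nb. Vasp, which encodes a protein that promotes actin filament growth, was at 76.5 and 79.5 CPM in the mutant, against 149 and 161 CPM in WT (adjusted p = 0.0624). Rimklb, a ligase gene of N-acetylaspartylglutamate synthesis, was at 12.3 and 13.3 CPM in the mutant and at 33.97 and 31.2 CPM in WT (adjusted p = 0.0785). Ephx2, soluble epoxide hydrolase, was at 19.2 and 21.6 CPM in the mutant and at 47.9 and 75.6 CPM in WT (adjusted p = 0.0900). Slc1a3, Arhgdib and Fmr1nb were further from the threshold, at adjusted p = 0.146, 0.226 and 0.246. All 6 had both mutant libraries below both WT libraries by the rule that chose them.

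For Ephx2 the groups overlapped at day 0 and not at day 2 or day 7. Mutant libraries held 19.2 and 24.5 CPM at day 0, 19.2 and 21.6 CPM at day 2 and 22.1 and 17.04 CPM at day 7. WT libraries held 30.3 and 20.7 CPM at day 0, 47.9 and 75.6 CPM at day 2 and 115 and 117 CPM at day 7. The difference passed at day 7 (log2 difference -2.56, adjusted p = 0.00506). The difference at day 2 minus that at day 0 was -1.38 on the log2 scale (unadjusted p = 0.00496, adjusted p = 1.00), which did not pass.

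Evc and Evc2 sit side by side on chromosome 5 and are transcribed away from each other. Their products form a complex at the base of the primary cilium that takes part in hedgehog signalling, the pathway in which the receptor Ptch1 restrains Smo until a ligand binds and Gli factors then act in the nucleus. Evc was at 41.3 and 41.7 CPM in the mutant, against 22.8 and 17.4 CPM in WT (log2 difference 1.05 ± 0.18, SE, adjusted p = 0.0692). Evc2 was at 50.0 and 47.5 CPM in the mutant, against 27.7 and 19.7 CPM in WT (log2 difference 1.04 ± 0.19, SE, adjusted p = 0.0785). Both genes were thus about 2 times higher in the mutant without passing the threshold at day 2. At day 7 both passed it, with log2 differences of 1.75 for Evc and 1.89 for Evc2 (adjusted p = 0.00278 for each), and Evc also passed at days 0 and 1 and Evc2 at day 1.

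The promoter windows of this pair are shown because the genes start close together and had like differences. The start sites lie 1597 bases apart in RefSeq (GRCm38.p6). Evc is chr5:37336832-37337131 on the minus strand and Evc2 is chr5:37338228-37338527 on the plus strand, each printed in its own direction of transcription with CG dinucleotides in capitals.
Evc: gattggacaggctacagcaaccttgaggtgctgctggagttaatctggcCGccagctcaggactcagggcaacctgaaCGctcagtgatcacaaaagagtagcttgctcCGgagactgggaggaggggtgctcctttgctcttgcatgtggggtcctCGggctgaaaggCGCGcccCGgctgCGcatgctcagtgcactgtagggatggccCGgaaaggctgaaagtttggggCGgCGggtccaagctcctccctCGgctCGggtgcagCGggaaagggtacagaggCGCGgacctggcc
Evc2: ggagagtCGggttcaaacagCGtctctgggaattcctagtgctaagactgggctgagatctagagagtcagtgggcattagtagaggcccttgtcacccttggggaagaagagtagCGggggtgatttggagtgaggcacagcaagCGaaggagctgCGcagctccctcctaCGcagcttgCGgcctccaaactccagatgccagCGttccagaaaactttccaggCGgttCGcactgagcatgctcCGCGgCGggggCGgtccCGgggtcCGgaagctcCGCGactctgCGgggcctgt
The windows hold 16 and 19 CG. They do not overlap, and 35.5% and 30.4% of genes have at least as many CG.

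Other hedgehog genes, added after seeing the data, were mixed. Gli1, a transcription factor gene and a known target of the pathway, was at 68.1 and 61.5 CPM in the mutant, against 35.05 and 17.5 CPM in WT (log2 difference 1.30 ± 0.30, SE, adjusted p = 0.300). Ptch1, the receptor and also a known target, was at 58.4 and 20.9 CPM in the mutant and at 45.5 and 8.32 CPM in WT, where the groups overlapped. Smo, the signal transducer, was at 37.2 and 31.97 CPM in the mutant and at 28.8 and 22.5 CPM in WT, with both mutant libraries above both WT libraries (adjusted p = 0.999), as was also so for the ciliary kinesin gene Kif7 (adjusted p = 0.885). Gli2 was at 111 and 95.7 CPM in the mutant and at 110.1 and 86.3 CPM in WT, and Gli3, Hhip, Sufu, Boc, Cdon and Gas1 also had overlapping groups.

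Among the Id genes, which encode inhibitors of basic helix-loop-helix factors and respond to BMP, Id1 and Id4 lay on opposite sides of 0. Id1 was at 34.6 and 35.9 CPM in the mutant, against 15.7 and 9.51 CPM in WT (log2 difference 1.48 ± 0.30, SE, adjusted p = 0.178). Id4 was at 8.003 and 5.80 CPM in the mutant and at 16.98 and 14.7 CPM in WT (log2 difference -1.20 ± 0.32, SE, adjusted p = 0.360). Neither passed, and the groups overlapped for Id2 and Id3. At day 0 Id1 was at 82.2 and 90.2 CPM in the mutant and at 81.96 and 88.2 CPM in WT, with overlapping groups.

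The position of genes on chromosomes was then described, without a test, since 4 of the 6 near-threshold higher genes shared a chromosome. The median log2 difference over all tested genes was -0.01. Over 801 genes of chromosome 8 it was 0.38, 81.0% of these genes lay above 0, and 150 were higher at an unadjusted p under 0.05 against 12 lower. Each of 13 windows of 10 Mb had a median above 0 (0.26 to 0.48). The shift was present at every day, at 0.40, 0.37 and 0.27 at days 0, 1 and 7. Relative to the mean of all 17 libraries, the chromosome 8 medians were 0.15 and 0.18 in the mutant libraries of day 2 and -0.30 and -0.05 in the WT ones. Over all days, the 9 mutant libraries (0.11 to 0.26) lay above the 8 WT libraries (-0.35 to -0.05).

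On chromosome 15 the difference rested on 1 WT library. Its 613 genes had a median difference of -0.25, with all 11 windows below 0. The library medians were -0.12 and -0.08 in the mutant at day 2, against -0.12 and 0.38 in WT, so that WT replicate 1 matched the mutant and WT replicate 2 did not. Over all days the chromosome 15 medians were -0.18 to -0.06 in the 9 mutant libraries, -0.15 to -0.07 in the libraries of WT replicate 1 and 0.30 to 0.41 in those of WT replicate 2. Without WT replicate 2 of day 2 the chromosome 15 median was 0.00. On chromosome 6, with 9.15% of 721 genes at an unadjusted p under 0.05, the median was -0.07. On chromosome 11, where 33.9% of 1244 genes lay above 0, the median was -0.12, and -0.09, -0.10 and -0.12 at days 0, 1 and 7. Its library medians at day 2 were -0.05 and -0.003 in the mutant, against 0.07 and 0.11 in WT. Over all days the chromosome 11 medians of mutant and WT libraries overlapped. Copy number was not measured, and whether it differs between these lines was not tested.

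**Figure D3:**
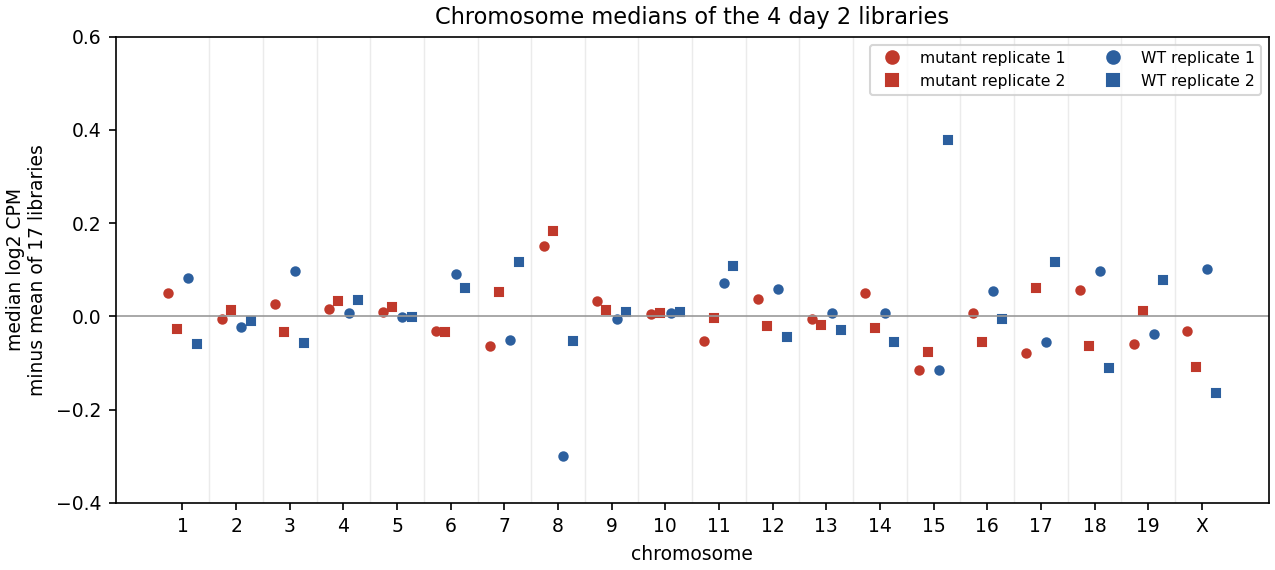
Median log2 CPM over the tested genes of each chromosome, relative to the mean of all 17 libraries, in the 4 libraries of day 2 (mutant red, WT blue). Mutant libraries are above 0 on chromosome 8, where WT replicate 1 is lowest at -0.30, and WT replicate 2 alone is high on chromosome 15 at 0.38.

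The transcription machinery was examined because the mutation is in RNA polymerase II. Polr2a, which encodes the large subunit, was at 664 and 514 CPM in the mutant, against 852 and 462 CPM in WT, with overlapping groups (adjusted p = 0.999). None of 13 polymerase II subunit genes reached an unadjusted p under 0.05, and their median was -0.07, or 0.14 against WT replicate 1 and -0.34 against WT replicate 2. Of 33 elongation and pausing factors, 2 were higher and 0 lower at that level (2.67% and 3.36% of all genes), with a median of 0.03. These were Supt16, a subunit of the histone chaperone FACT, at 593 and 621 CPM in the mutant and 487 and 458 CPM in WT, and Hexim1, an inhibitor of P-TEFb, at 135 and 155 CPM in the mutant and 114 and 83.1 CPM in WT. Both had the mutant libraries above the WT libraries by less than 2-fold. The TFIIS factors, which rescue stalled polymerases, had a median of 0.33 over 3 genes. Tcea3 was at 75.3 and 77.7 CPM in the mutant, against 67.7 and 48.2 CPM in WT (adjusted p = 0.868). Its log2 difference was 0.40 at day 2 and 1.08 at day 1, where it passed (adjusted p = 0.0284). Of 36 splicing factors none reached an unadjusted p under 0.05, and the median was 0.09.

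Long genes take longest to transcribe, so differences were set against genomic span. The medians were 0.00 for 3734 genes under 10 kb, -0.01 for 4844 genes of 10 to 30 kb, 0.01 for 4268 genes of 30 to 100 kb, -0.08 for 1673 genes of 100 to 300 kb and -0.24 for 486 genes of 300 kb and over. In the longest group the library medians were -0.01 and -0.14 in the mutant and 0.28 and -0.10 in WT, relative to all 17 libraries. The mutant libraries thus lay on both sides of WT replicate 2 and below WT replicate 1. Without WT replicate 1 the median of this group was 0.02. At days 0, 1 and 7 the median of this group was -0.54, -0.55 and -0.23. None of the 11 called genes was 300 kb or longer.

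Pluripotency genes were set beside all tested genes, of which 2.67% were higher and 3.36% lower at an unadjusted p under 0.05. None of 10 core pluripotency genes reached an unadjusted p under 0.05, and their median was -0.03. Of 19 naive pluripotency genes, 1 was higher and 1 lower at that level, with a median of 0.08. The higher one was Klf2, a Krüppel-like factor gene of the naive state, at 672 and 856 CPM in the mutant and 399 and 539 CPM in WT (adjusted p = 0.761). Klf2 lies on chromosome 8. The lower one was Dppa3, a gene of naive cells and the germline that protects against DNA methylation, at 6.62 and 7.95 CPM in the mutant and 44.9 and 10.1 CPM in WT (adjusted p = 0.787). Only WT replicate 1 was far from the mutant.

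Other naive factors, all transcription factors, differed by less. Esrrb was at 1031 and 903 CPM in the mutant and at 1003 and 1026 CPM in WT. Tfcp2l1 was at 1152 and 1057 CPM in the mutant and at 993 and 1018 CPM in WT, and Zfp42 at 774 and 767.5 CPM in the mutant and at 657 and 783 CPM in WT. Klf4 was at 234 and 187 CPM in the mutant and at 299 and 258 CPM in WT, with both mutant libraries lower (adjusted p = 0.972). The groups overlapped for Esrrb and Zfp42, and Tfcp2l1 was higher in both mutant libraries (adjusted p = 0.999). The SE of these log2 differences was 0.27 to 0.30.

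For genes of the formative state and the ERK pathway, the direction depended on the WT library. The formative and primed list had a median of -0.29 over 21 genes, or -0.75 against WT replicate 1 and 0.35 against WT replicate 2. The list of ERK feedback genes and targets had a median of -0.44 over 23 genes. It was -0.37 with the 1 gene that had a group at 0 counts bounded or left out. The median was -0.58 against WT replicate 1 and 0.23 against WT replicate 2. Egr1, an immediate early gene downstream of ERK, was at 109 and 1.70 CPM in the mutant, against 95.1 and 0.821 CPM in WT. Dusp6, a phosphatase that acts on ERK, was at 8.003 and 1.78 CPM in the mutant and at 18.7 and 4.07 CPM in WT. In both genes and in both genotypes, replicate 1 was high and replicate 2 low.

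The list of Wnt targets, which CHIR99021 acts on, had a median of 0.18 over 21 genes. It was -0.34 against WT replicate 1 and 0.57 against WT replicate 2. At an unadjusted p under 0.05, 2 were higher and 2 lower (2.67% and 3.36% of all genes). Axin2, a feedback inhibitor of the pathway, was at 52.9 and 55.3 CPM in the mutant and at 82.3 and 42.4 CPM in WT. Cdx1, a homeobox gene, was at 128.5 and 251 CPM in the mutant, against 53.6 and 121 CPM in WT. The groups overlapped for Axin2, whereas both mutant libraries were above both WT libraries for Cdx1 (adjusted p = 0.818).

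Of 15 genes for DNA methylation and demethylation, 4 were lower and 0 higher at an unadjusted p under 0.05 (3.36% and 2.67% of all genes), with a median of -0.38. Dnmt3l, the cofactor of the de novo DNA methyltransferases, was at 34.1 and 36.4 CPM in the mutant, against 101 and 162 CPM in WT (log2 difference -1.90 ± 0.47, SE, adjusted p = 0.351). Both mutant libraries were well below both WT libraries. In the mutant Dnmt3l was at 433 and 274 CPM at day 0 and 14.1 and 17.4 CPM at day 7, while WT had 328 and 1028 CPM at day 0 and 133 and 124 CPM at day 7. At day 7 it passed (adjusted p = 0.0397).

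The other lower genes of the list were Gadd45a and Gadd45b, stress-induced genes linked to demethylation, and Dppa3. Gadd45a was at 8.41 and 7.34 CPM in the mutant, against 16.0 and 17.9 CPM in WT (adjusted p = 0.402). Dnmt1, the maintenance methyltransferase gene, was at 614 and 546 CPM in the mutant, against 531 and 449 CPM in WT, with both mutant libraries higher (adjusted p = 0.954). The groups overlapped for the de novo methyltransferase genes. Dnmt3b was at 64.0 and 51.8 CPM in the mutant and at 122 and 57.7 CPM in WT, and Dnmt3a at 49.99 and 40.9 CPM in the mutant and at 56.4 and 30.2 CPM in WT.

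To place the libraries on the path of the 2i response, genes that differed between day 7 and day 0 over both genotypes were used, 4200 in number (27.3%), of which 2102 were higher and 2098 lower at day 7. None of the 4 libraries of day 2 entered that contrast, though they shared the fit's spread. On a scale where 0% is the mean of day 0 and 100% the mean of day 7, the mutant libraries of day 2 lay at 54.1% and 61.9% and the WT libraries at 53.4% and 79.9%. The mutant thus lay between the WT replicates. At day 1 the mutant libraries lay at 39.7%, 28.1% and 38.9%, again between the WT libraries at 21.1% and 58.2%.

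The genes behind this scale followed the same order of libraries. Genes higher at day 7 had a median difference of -0.17 at day 2, with a median of 0.00 against WT replicate 1 and -0.30 against WT replicate 2. Genes lower at day 7 had a median of 0.06, or -0.06 against WT replicate 1 and 0.25 against WT replicate 2. The sign thus turned with the WT library for genes lower at day 7. For genes higher at day 7 the median lay away from 0 only against WT replicate 2.

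**Figure D4:**
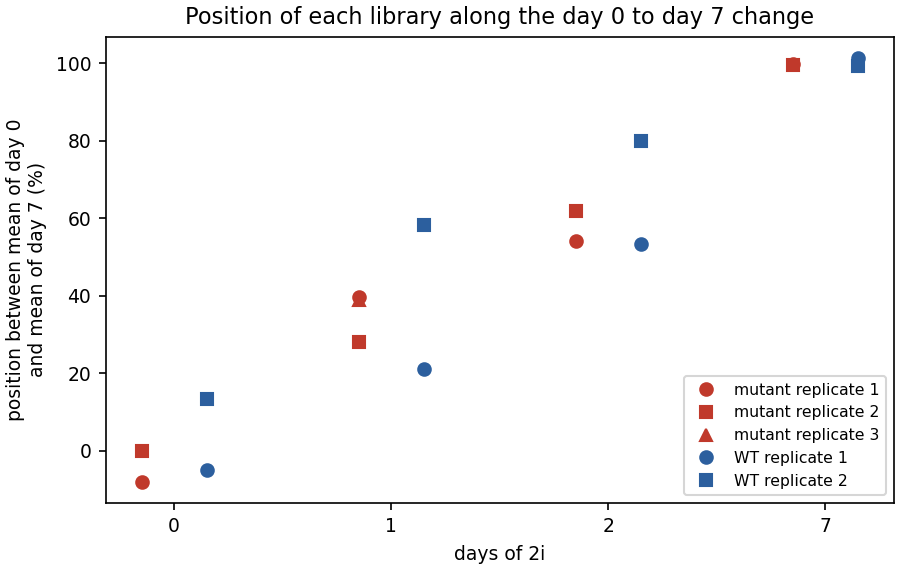
Position of each library between the mean of day 0 (0%) and the mean of day 7 (100%) over 4200 genes that changed with 2i, by days of 2i, with mutant libraries left of WT libraries. At day 2 the mutant libraries lie at 54.1% and 61.9%, between the WT libraries at 53.4% and 79.9%.

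Markers of other cell types varied with the WT replicate. In bulk samples, fewer cells of a type and less RNA per cell cannot be told apart. All 27 tested primitive endoderm genes lay below 0, with a median of -1.02, and 8 of them were lower at an unadjusted p under 0.05. Of all tested genes, 51.65% lay below 0 and 3.36% were lower at that level. Against WT replicate 1 the median was -0.02 and against WT replicate 2 it was -2.18. The summed level of the list was 2568 and 2326 CPM in the mutant, against 2667 and 4742 CPM in WT. Cubn, an endocytic receptor of the visceral endoderm, was at 0.273 and 0.0404 CPM in the mutant and at 0.196 and 8.06 CPM in WT, and Sox17, an endoderm transcription factor, at 0.429 and 0.768 CPM in the mutant and at 0.508 and 8.95 CPM in WT. Gata6, which specifies primitive endoderm, was at 0.703 and 0.647 CPM in the mutant and at 0.665 and 6.27 CPM in WT. WT replicate 1 was as low as the mutant in all of these genes. Of 28 listed genes, 3 and 1 were at 0 in the mutant libraries and 2 and 0 in the WT libraries.

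Rhox5, an X-linked homeobox gene of extraembryonic cells, and Dab2, an endocytic adaptor of endoderm, had both mutant libraries below both WT libraries. Rhox5 was at 2.97 and 2.95 CPM in the mutant, against 15.8 and 35.1 CPM in WT (log2 difference -3.10 ± 0.78, SE, adjusted p = 0.354). Dab2 was at 2.73 and 1.82 CPM in the mutant, against 4.77 and 16.9 CPM in WT (adjusted p = 0.684). Neither passed.

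Stromal transcripts came from the other WT library. The list of fibroblast, stromal and smooth muscle genes had a median of -1.31 over 23 genes, or -1.01 with the 3 genes at 0 counts in the mutant set to their bound. Acta2, smooth muscle actin, was at 1.95 and 0.445 CPM in the mutant, against 41.5 and 0 CPM in WT. Col1a1, a fibrillar collagen gene, was at 1.52 and 2.35 CPM in the mutant and at 44.5 and 3.96 CPM in WT. WT replicate 1 was far above the other libraries in both genes, and WT replicate 2 was at 0 for Acta2 and somewhat above the mutant for Col1a1. The list median was -1.46 against WT replicate 1 and 0.00 against WT replicate 2. The summed list was at 2220 and 1882 CPM in the mutant and at 2809 and 2329 CPM in WT. Lum and Fap, markers of fibroblasts, had 0 counts in all 4 libraries.

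Trophoblast genes had a median of -1.01 over 21 genes, or -0.45 without WT replicate 1, with 17 below 0 and 4 above. At an unadjusted p under 0.05, 3 were lower and 0 higher (3.36% and 2.67% of all genes). Both mutant libraries were below both WT libraries in 11 (15.5% of all genes) and above them in 2 (14.6% of all genes). Krt19, a keratin gene of epithelia, was at 4.14 and 4.75 CPM in the mutant, against 26.6 and 21.7 CPM in WT (log2 difference -2.44 ± 0.84, SE, adjusted p = 0.630). Gata2, a trophoblast and blood factor, was at 15.6 and 12.9 CPM in the mutant and at 16.9 and 40.7 CPM in WT (adjusted p = 0.787). Both genes had the mutant libraries below the WT libraries. Cdx2, a trophoblast regulator, went the other way, at 6.83 and 16.3 CPM in the mutant and at 6.41 and 2.95 CPM in WT. Its log2 difference was 1.30 ± 1.16 (SE, adjusted p = 0.999). The placental genes Prl3d1 and Tpbpa had 0 counts in all 4 libraries. The mesoderm list had a median of 0.24 over 22 genes, or 0.27 against WT replicate 1 and -0.15 against WT replicate 2, and its marker T was at 6.62 and 9.24 CPM in the mutant and at 11.4 and 2.54 CPM in WT.

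Neural genes had a median above 0. Of 17 tested genes of the neuroectoderm and neuron list, 14 lay above 0 and 3 were higher at an unadjusted p under 0.05, with a median of 0.30. These were Elavl3, Tubb3 and Sox3, and 2.67% of all tested genes were higher at that level. Tubb3, neuronal beta-tubulin, on chromosome 8, was at 235 and 244 CPM in the mutant, against 103 and 86.3 CPM in WT (log2 difference 1.34 ± 0.40, SE, adjusted p = 0.489). Sox3, a neural progenitor factor, was at 3.98 and 7.89 CPM in the mutant and at 2.48 and 1.19 CPM in WT (adjusted p = 0.702). Stmn2, a neuronal gene among the 3 below 0, was at 119 and 222 CPM in the mutant and at 216 and 309 CPM in WT. Its groups overlapped (log2 difference -0.62 ± 0.29, SE, adjusted p = 0.835). The list median was -0.11 against WT replicate 1 and 0.93 against WT replicate 2. Dcx, a marker of young neurons, had 0 counts in all 4 libraries. How far the marker lists of other cell types move the remaining results was not tested.

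**Figure D5:**
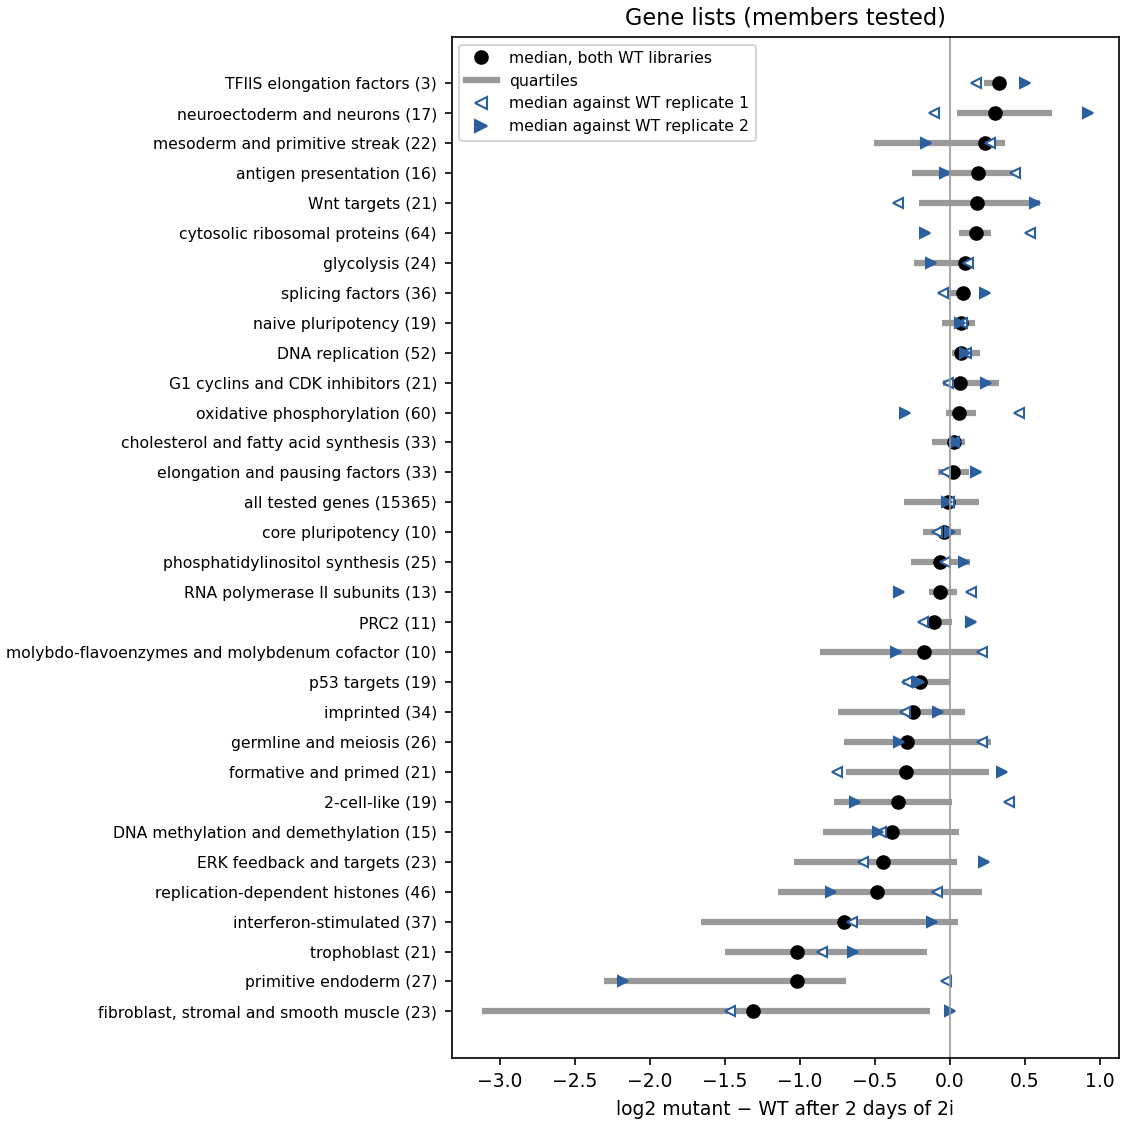
Median log2 difference of mutant minus WT after 2 days of 2i for each gene list (black points), with quartiles of the members (grey bars) and the median against each WT library alone (blue triangles). Primitive endoderm is near 0 against WT replicate 1 and at -2.18 against WT replicate 2, and the stromal list shows the opposite pattern.

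Interferon-stimulated genes, which respond to type I interferon, had a median of -0.70 over 37 genes, or -0.59 with 1 gene at 0 counts set to its bound, and 27 lay below 0. The median was -0.65 against WT replicate 1 and -0.12 against WT replicate 2, and without WT replicate 1 it was -0.10. At an unadjusted p under 0.05, 3 were lower and 0 higher (3.36% and 2.67% of all genes). Both mutant libraries were below both WT libraries in 12 and above them in 0 (15.5% and 14.6% of all genes). Oas1a, an oligoadenylate synthetase gene, was at 10.3 and 12.8 CPM in the mutant, against 20.2 and 52.7 CPM in WT (adjusted p = 0.756). Oas1g, its neighbour and close relative, was at 4.24 and 5.94 CPM in the mutant and at 8.23 and 21.9 CPM in WT (adjusted p = 0.820). Ifitm3, a gene for a membrane protein that blocks virus entry, was at 42.4 and 67.2 CPM in the mutant and at 68.0 and 129 CPM in WT (adjusted p = 0.761). All 3 had both mutant libraries below both WT libraries, with WT replicate 2 the highest, unlike the list median, which lay further from 0 against WT replicate 1. None passed. The copies of Oas1 are alike, so that reads may have been split between them.

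Promoters of these 3 genes are shown because they carry a sequence known from interferon-responsive promoters. In the windows from 250 bases before to 50 after each start (RefSeq, GRCm38.p6), AAANNGAAA was searched on both strands and is printed in capitals, with overlapping matches merged. Oas1a is chr5:120907476-120907775, Oas1g is chr5:120887564-120887863 and Ifitm3 is chr7:141010695-141010994, all on the minus strand.
Oas1a: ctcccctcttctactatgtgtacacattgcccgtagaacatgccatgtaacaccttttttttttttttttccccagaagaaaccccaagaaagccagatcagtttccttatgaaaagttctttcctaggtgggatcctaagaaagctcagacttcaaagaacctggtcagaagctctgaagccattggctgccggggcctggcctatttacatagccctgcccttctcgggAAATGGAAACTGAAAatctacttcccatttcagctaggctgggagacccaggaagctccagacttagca
Oas1g: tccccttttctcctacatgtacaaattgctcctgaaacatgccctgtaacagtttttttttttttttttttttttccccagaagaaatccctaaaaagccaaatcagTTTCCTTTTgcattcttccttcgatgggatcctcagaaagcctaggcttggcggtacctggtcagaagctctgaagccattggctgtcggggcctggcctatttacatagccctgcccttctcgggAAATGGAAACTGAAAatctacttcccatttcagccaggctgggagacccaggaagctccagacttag
Ifitm3: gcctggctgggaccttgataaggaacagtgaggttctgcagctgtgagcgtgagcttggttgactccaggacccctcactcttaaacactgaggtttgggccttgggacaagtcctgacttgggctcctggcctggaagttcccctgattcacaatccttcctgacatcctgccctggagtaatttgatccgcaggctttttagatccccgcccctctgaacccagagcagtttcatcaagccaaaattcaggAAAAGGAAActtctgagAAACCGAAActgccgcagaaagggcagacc
The matches number 2, 3 and 2. Of 28 tested interferon-stimulated genes with a window, 18 (64.3%) held the motif, against 9.25% of 11736 tested genes and 12.1% of 27025 genes with a window. A match describes the letters of the window and not a bound site.

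Beyond Mest, imprinted genes were mixed. Of 34 tested, 1 was called (0.0716% of all genes), and 5 were lower and 1 higher at an unadjusted p under 0.05 (3.36% and 2.67% of all genes). The median was -0.24, or -0.07 without WT replicate 1. Igf2, a fetal growth factor gene, was at 14.6 and 7.52 CPM in the mutant, against 127 and 34.1 CPM in WT (log2 difference -2.86 ± 0.95, SE, adjusted p = 0.593). Nnat, which encodes a small membrane protein of neurons, had 0 counts in both mutant libraries against 48 and 16 counts in WT, at least 20.5-fold lower by the floor of 3 counts over the group (adjusted p = 0.360). Cdkn1c, a cell cycle inhibitor transcribed from the maternal allele, was at 14.7 and 18.4 CPM in the mutant and at 9.66 and 10.4 CPM in WT (adjusted p = 0.756). WT replicate 1 was above WT replicate 2 in Igf2 and Nnat.

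Genes of growth differed by little. Of 52 DNA replication genes, 40 lay above 0 (48.3% of all genes), with a median of 0.07. At an unadjusted p under 0.05, 5 were higher and 0 lower (2.67% and 3.36% of all genes). Both mutant libraries were above both WT libraries in 16 and below them in 0 (14.6% and 15.5% of all genes). Rfc3, a subunit of the clamp loader, was at 66.1 and 81.7 CPM in the mutant, against 55.8 and 50.9 CPM in WT (adjusted p = 0.702). Rfc4, another subunit, was at 62.2 and 77.02 CPM in the mutant, against 48.4 and 52.9 CPM in WT (adjusted p = 0.713). The list median was 0.11 against WT replicate 1 and 0.10 against WT replicate 2.

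Cytosolic ribosomal protein genes had 58 of 64 above 0 and a median of 0.18, yet it was 0.54 against WT replicate 1 and -0.16 against WT replicate 2. Their summed level was 38003 and 61381 CPM in the mutant, against 32290 and 55858 CPM in WT, with replicate 2 higher in both genotypes. Rpl5, a large subunit protein gene, was at 107.5 and 104 CPM in the mutant and at 78.9 and 63.3 CPM in WT (log2 difference 0.57 ± 0.18, SE, adjusted p = 0.523). Ribosomal protein genes have many near-identical processed copies, and how such reads were counted is not given in the sources used here. Oxidative phosphorylation genes had a median of 0.06 over 60 genes, or 0.46 against WT replicate 1 and -0.30 against WT replicate 2.

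In metabolism, 3 of 24 glycolysis genes were lower and 0 higher at an unadjusted p under 0.05 (3.36% and 2.67% of all genes). All 3 were on chromosome 6. The list median was 0.10, or 0.12 against WT replicate 1 and -0.13 against WT replicate 2. Slc2a3, a glucose transporter gene, was at 1775 and 1600 CPM in the mutant, against 2651 and 2752 CPM in WT (log2 difference -0.68 ± 0.20, SE, adjusted p = 0.488). Hk2, hexokinase 2, was at 178 and 163.5 CPM in the mutant and at 319 and 320.5 CPM in WT (adjusted p = 0.597). Ldhb, a lactate dehydrogenase subunit, was at 225 and 320 CPM in the mutant and at 663 and 485 CPM in WT (adjusted p = 0.741). The groups did not overlap in any of them.

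The 33 genes for cholesterol and fatty acid synthesis had a median of 0.03. At an unadjusted p under 0.05, 1 was higher and 1 lower (2.67% and 3.36% of all genes). Sqle, squalene epoxidase, on chromosome 15, was at 77.5 and 68.6 CPM in the mutant, against 118 and 155 CPM in WT (log2 difference -0.90 ± 0.21, SE, adjusted p = 0.300). Replication-dependent histone genes had a median of -0.48 over 46 genes, or -0.09 against WT replicate 1 and -0.79 against WT replicate 2, at summed levels of only 35.5 and 40.1 CPM in the mutant and 33.8 and 44.0 CPM in WT. The p53 targets had a median of -0.20 over 19 genes with none at an unadjusted p under 0.05, and Cdkn1a, the p53 target that halts the cell cycle, was at 206.5 and 257 CPM in the mutant and at 179 and 280.5 CPM in WT.

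Ankle1, an endonuclease gene on chromosome 8, was at 13.4 and 19.3 CPM in the mutant, against 7.45 and 8.56 CPM in WT (log2 difference 1.03 ± 0.25, SE, adjusted p = 0.349). It passed at day 0 (adjusted p = 0.0487) and at day 1 (adjusted p = 0.0455). Slc12a8 and Miip also passed at day 0 and not at day 2. Slc12a8, a solute carrier gene, was at 22.5 and 23.6 CPM in the mutant, against 16.5 and 19.3 CPM in WT, a log2 difference of 0.37 at day 2 and 1.73 at day 0, where it passed (adjusted p = 0.0178). Miip, which encodes a migration inhibitor, was at 39.7 and 54.1 CPM in the mutant and at 27.4 and 30.04 CPM in WT, a log2 difference of 0.71 at day 2 and 1.501 at day 0 (adjusted p = 0.0383). Both were still higher in both mutant libraries of day 2. The change of the difference did not pass for either gene (unadjusted p = 0.00297 for Slc12a8 and 0.0541 for Miip, adjusted p = 1.00 for each).

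The remaining lists are given beside all tested genes, of which 2.67% were higher and 3.36% lower at an unadjusted p under 0.05. The numbers higher and lower were 0 and 1 of 19 2-cell-like genes (median -0.35), 1 and 2 of 26 germline genes (-0.29), 0 and 0 of 16 antigen presentation genes (0.19), 1 and 0 of 11 PRC2 genes (-0.10), 2 and 0 of 21 G1 cyclins and CDK inhibitors (0.07) and 0 and 1 of 10 molybdenum enzyme and cofactor genes (-0.17), the last being Aox3. Against WT replicate 1 and then WT replicate 2, the medians were 0.40 and -0.63 for 2-cell-like genes, 0.21 and -0.34 for germline genes, 0.44 and -0.03 for antigen presentation, -0.17 and 0.14 for PRC2, -0.01 and 0.24 for the G1 list and 0.22 and -0.36 for the molybdenum list, so each of these signs turned with the WT library.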

How the data were processed

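The deposited values are raw read counts per gene in 1 table of 20621 gene symbols and 17 libraries of total RNA, with 0 sample columns left unused. Per the submitters' processing notes, STAR, deepTools and the build mm10 were used, with no versions. The counting tool, annotation, strand setting and treatment of multi-mapping reads are not given in the sources used here. Libraries held 47350441 to 56138844 counts. Groups of genotype and day came from the sample titles.

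Counts were filtered (filterByExpr, 15365 genes kept), scaled by TMM and fitted with edgeR 4.0.16 (R 4.3.3), with a coefficient for each of 8 groups over 17 libraries (9 residual degrees of freedom). Contrasts were mutant minus WT at each day and the day 2 difference minus that of day 0 or 7. Two-sided p-values were adjusted by Benjamini-Hochberg over all genes. The fitted log2 differences use edgeR's prior count, and SE is the log2 difference over the root of F. Medians against a single library use log2 CPM with a prior count of 2. A group at 0 was set to 3 counts over the group, about 0.03 CPM, which covers counting error only. Positions came from GENCODE M21 on GRCm38, matched for 20144 symbols (97.7%, with 42 from RefSeq).

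Named were all called genes, up to 4 members of smallest p in each of 32 lists, a fixed set, and 6 higher and 6 lower uncalled genes of smallest p with at least 5 CPM and groups that did not overlap. Members and lists were chosen with earlier results of these data known. Hedgehog and Id genes, X partners, chromosomes, 2i response sets and the windows of Mest, Evc and Evc2 were added after seeing the data. Alternatives were DESeq2 1.42.0, other normalisations (RLE and upper-quartile), no filter or 1 CPM in at least 4 libraries, other terms and left-out libraries. The procedure was tested on simulated data. List members are described by counts and medians, without a test. Values of some listed genes are not reported here.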

Additional observations from a re-analysis of the deposited data

How the results depend on the processing

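The 11 calls at day 2 numbered 11 with RLE factors, 12 with upper-quartile factors, 11 without a filter, 12 with the stricter filter, 9 with gene span offsets and 16 without WT replicate 1 of days 0 and 1. The count moved to 134 with DESeq2, 98 with a term for the WT series (replicate number within WT) and 0 with only the groups compared in the fit (603 at an unadjusted p under 0.05). All 11 genes were among those called by DESeq2 and with the WT series term. Leaving out 1 of the 4 libraries gave 0 to 5 calls, with the spread of a group of 1 library borrowed from the other groups. The cause of these changes was not tested. None of the 11 genes changed sign under any of 14 alternatives. Mest was called in 12 of them, with log2 differences of -7.48 to -6.03, and Aox3, Prrc1 and Sh3rf2 in 7.

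With replicate number as a replicate block over all libraries, 8 genes were called, 6 of them among the 11, with Fmr1nb and Zfp951 added. The deviations of replicate 1 from replicate 2 correlated between the genotypes at r = 0.503 across genes at day 2. The labels do not say whether libraries of the same number share more than that number, and this was not tested. The tests of the day 2 difference against day 0 and day 7 gave 0 calls under all alternatives, leave-outs included (0 to 0), except 1 call against day 7 with DESeq2. Among 176 named genes without a call, 29 were called under at least 1 alternative, 24 of them with DESeq2 and 16 with the WT series term.

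List medians turned with single libraries. Without WT replicate 2 of day 2, the primitive endoderm median was 0.00, that of ribosomal proteins 0.59 and that of oxidative phosphorylation 0.53. Without WT replicate 1 of day 2 they were -1.78, -0.12 and -0.25, the stromal median was 0.01 and the medians of the formative list and of ERK targets were 0.39 and 0.31. The chromosome 8 median stayed between 0.24 and 0.49 over all 14 alternatives. With 2 libraries a group, the spread between replicates limits what could be called.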
